A study of Mus musculus with 8 samples.

Results

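H2A.X domains that differ between DNMT1 knockout (KO) mouse embryonic stem (ES) cells and their control were described from 1 deposited list, and the members were all 4130 domains of that list, of 25499 domains in the 6 lists of the series. The study measured H2A.X by native chromatin immunoprecipitation and sequencing, in which chromatin is cut by micrococcal nuclease without crosslinking. Its other lists compare serum with 2i medium, 2i with media holding an inhibitor of protein kinase C or of Src, TDG control with TDG knockdown, and TKO control with TKO, a genotype that the labels do not spell out. The labelled DNMT1 KO sample is 1 library from cells of strain 129S6/C57B6, grown in medium with serum and leukaemia inhibitory factor. Of the groups set beside it, the 2i library is from wild-type cells of the same strain, and the TDG and TKO pairs are from 129/Ola cells in serum, with wild-type controls. The DNMT1 control, like the serum library beside 2i, is named only in its list, and the sources used here do not give its strain and medium. Neither condition has a replicate, so no difference between them could be tested. Read depth is unknown, and loss of DNMT1 could not be checked, since the list holds no expression and no read counts.

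DNMT1 is the enzyme that copies DNA methylation onto the new strand after replication, and cells without it lose methylation as they divide. H2A.X is a variant of histone H2A that is built into nucleosomes across the genome and is best known for its phosphorylated form at DNA breaks. The antibody in the labels is to H2A.X, and the labels do not restrict it to the phosphorylated form. Medium 2i, which blocks the kinases MEK and GSK3, is known to lower DNA methylation in mouse ES cells, and TDG is a glycosylase that removes oxidised methylcytosine from DNA.

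Each line of the list places a domain on a 1 kb grid, names the enriched library and carries a signed score and a further score. The first library was taken as the control and the next as the knockout, from the order in the list's name, and every direction below rests on that order. Both scores are the authors' own, without a stated unit, and serve here only to describe domains within the list. Coordinates are on mm9 and count from 1, and no mm9 gene annotation was used here, so no gene is assigned to a domain. Of the 2631 control domains and 1499 KO domains, the summaries hold the 2529 and 1470 on autosomes with a score away from 0. Left out were 21 domains on Y (11 control and 10 KO), 1 KO domain on mitochondrial DNA, and 14 control domains of autosomes and X whose score lay within 0.05 of 0, which span 0.176 Mb in all. Chromosome X, with 77 control and 18 KO domains, is described apart.

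The knockout side was made of many short domains, and the control side of broad ones. A shorter and a broader side were found in every list of the series. On the autosomes the 1470 KO domains covered 88.6 Mb, or 3.58% of the 2472 Mb reached by the lists, while the 2529 control domains covered 1097 Mb, or 44.4%. The remaining 52.0% lay on neither side. The control side thus held 1.72 times as many domains as the knockout side but 12.4 times the covered length. Median length was 43.5 kb (95% interval from order statistics 40 to 47 kb) in KO domains and 245 kb (230 to 259 kb) in control domains, a ratio of 5.63. The middle 50% of KO domains ran from 22 to 81 kb, and that of control domains from 123 to 515 kb. In the other lists, median lengths were 14 kb for 2i and 93 kb for serum, and 16 kb for TKO and 224.5 kb for its control. They were 6 kb for TDG control and 493.5 kb for TDG knockdown. Domains higher in 2i had medians of 92 and 107 kb against the protein kinase C and Src inhibitor media, whose own sides had 415 and 335 kb. Intervals here and below cover counting error among domains of 1 pair of libraries, not the error between cultures.

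**Figure D1:**
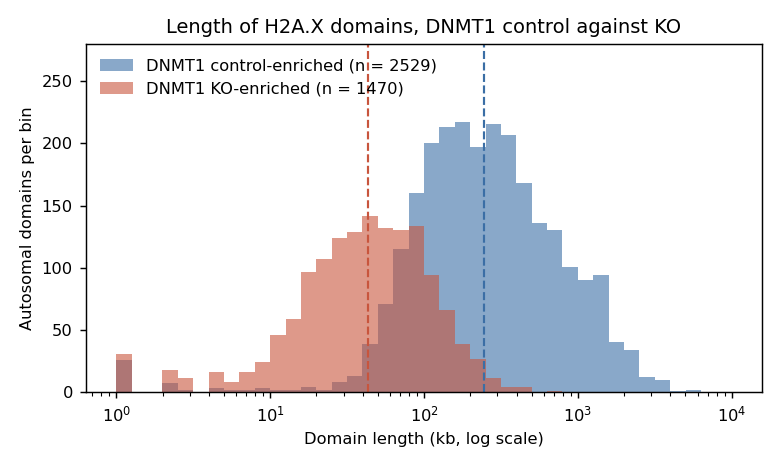
Histogram of domain length (kb, log scale) for the 1470 KO and 2529 control domains on autosomes, with dashed lines at the medians of 43.5 and 245 kb. The KO side has no domain above 665 kb, while 283 control domains reach 1 Mb or more.

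Length classes show where the covered bases lie. KO domains of 10 to under 50 kb numbered 684 and those of 50 to under 200 kb numbered 615, and the latter class held 63.3% of the bases on the KO side. Only 47 KO domains reached 200 kb, with 14.6% of the bases, and none reached 1 Mb. On the control side, 1155 domains of 200 kb to under 1 Mb held 46.8% of the bases, and the 283 domains of 1 Mb or more held 42.2%. Very short domains were few on both sides, with 67 KO and 37 control domains under 5 kb, 4.56% and 1.46% of their sides.

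The longest autosomal KO domain, chr11:30506001-31171000, spanned 665 kb with a signed score of -5.66. It was followed by chr17:22566001-23063000 (497 kb, score -6.89), chr6:33211001-33705000 (494 kb, score -5.80) and chr5:110068001-110523000 (455 kb, score -6.59). The fifth, chr17:21954001-22367000, spanned 413 kb with a score of -6.81 and lies on the same stretch of chromosome 17 as the longer one. None of the 5 scores lay in the lowest 25% of the side, which ends at -7.59. Those on chromosomes 11 and 6 were above -6.06, among the 25% nearest the control side. The longest autosomal control domains were chr12:25737001-31644000 at 5907 kb and chr14:109613001-115382000 at 5769 kb, with scores of -2.32 and -2.57. The next, chr11:110393001-114834000, spanned 4441 kb, chr2:40011001-43735000 spanned 3724 kb and chr9:26993001-30694000 spanned 3701 kb.

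The signed score falls toward the knockout. Its median was -6.56 (interval -6.62 to -6.51) in KO domains and -2.59 (-2.60 to -2.58) in control domains, and on the autosomes the ranges of the sides did not overlap. The KO domain nearest the control side, chr12:32325001-32456000, scored -5.01, and the control domain nearest the KO side, a 1 kb domain at chr7:21574001-21575000, scored -3.96. No domain lay between. The mark that sets the sides and the score come from the same comparison, so this gap is a description of the calls, and in each of the other 5 lists the sides also did not overlap in score. Only 35 of the 2529 control domains had a score above 0. A control mark therefore went mostly with a score that leaned less toward the knockout, and where no difference lies on this scale is not stated.

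Short KO domains had the most extreme scores. The median score was -24.1 in KO domains under 5 kb, -10.5 at 5 to under 10 kb, -6.94 at 10 to under 50 kb, -6.12 at 50 to under 200 kb and -5.99 at 200 kb to under 1 Mb. Across KO domains the Spearman correlation of length with score was 0.67, and across control domains it was -0.59. By rank, then, longer domains tended to lie nearer to the gap between the sides, on both sides. The control domains nearest that gap were an exception, with lengths of 1, 1 and 2 kb and scores of -3.96, -3.80 and -3.76. The correlations are descriptions over domains that share the same 2 libraries. Scores under -10 were found in 155 KO domains, under -20 in 60 and under -50 in 16.

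**Figure D2:**
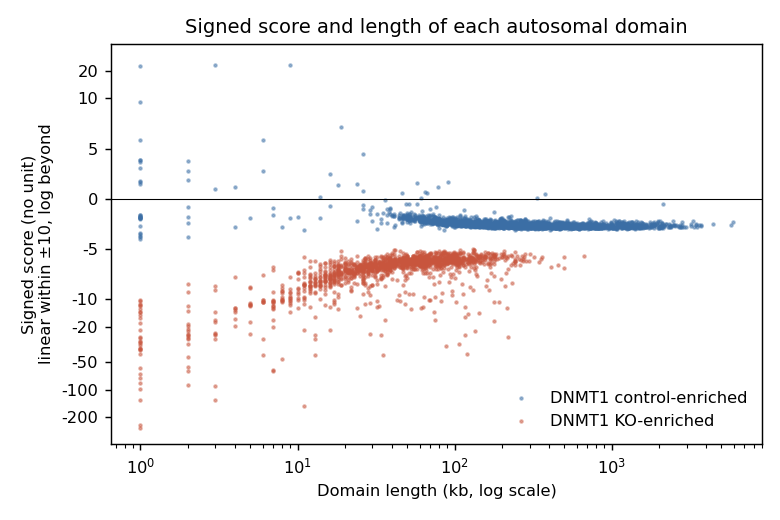
Signed score (no unit; linear within 10 of 0 and log beyond) against domain length (kb, log scale), 1 point per autosomal domain. The sides are parted by an empty band between -5.01 and -3.96, and the lowest score, -267, belongs to a KO domain of 1 kb, while the 50 lowest include domains of up to 218 kb.

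The lowest autosomal score, -267, belonged to a single 1 kb bin, chr9:3038001-3039000. The other 1 kb domains among the 5 lowest were chr12:68160001-68161000 at -243 and chr3:56379001-56380000 at -131. The remaining ones were chr17:39975001-39986000, which spans 11 kb and scored -152, and chr9:35111001-35114000, which spans 3 kb and scored -131. Of the 50 KO domains with the lowest scores, all at or below -24.2, 33 were at most 4 kb long and the longest spanned 218 kb, and they lay on 15 autosomes. Whether repeated sequence or copy number moves with these scores was not tested. For comparison, the single KO domain on mitochondrial DNA scored -511, lower than any nuclear domain of the list. The highest scores of the control side also came from short domains, at 23.3 for the 9 kb domain chr8:125950001-125959000, 23.3 for the 3 kb domain chr4:118219001-118222000 and 23.1 for the 1 kb domain chr6:103264001-103265000. The next were 9.62 at chr19:9458001-9459000 and 7.11 at chr7:38964001-38983000.

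The further score was above 0 and at most 1 per kb in every domain. It had a median of 0.809 per kb in KO domains and 0.724 per kb in control domains, and the KO median was the higher on all 19 autosomes. At least 0.9 per kb was reached by 323 KO and 89 control domains. In KO domains it fell with length, from a median of 0.909 per kb under 5 kb to 0.705 per kb at 200 kb to under 1 Mb, which is close to the 0.701 per kb of control domains of that length.

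The open stretches between KO domains were wide. The gap from the edge of a KO domain to the next KO domain had a median of 587 kb (507 to 676 kb, 1451 gaps), against 256.5 kb (244 to 271 kb, 2510 gaps) between control domains. The KO side also has fewer domains, which alone widens its gaps. The upper 25% of KO gaps exceeded 1968.5 kb, and 135 were 5 Mb or longer, against 6 on the control side. The order depends on how distance is taken. From midpoint to midpoint, which includes the length of the domains, the medians were 648 kb for KO and 741 kb for control domains. The smallest gap between KO domains was 21 kb. None was 20 kb or less, while the control side had 14 such gaps, 3 of them of 0 kb.

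**Figure D3:**
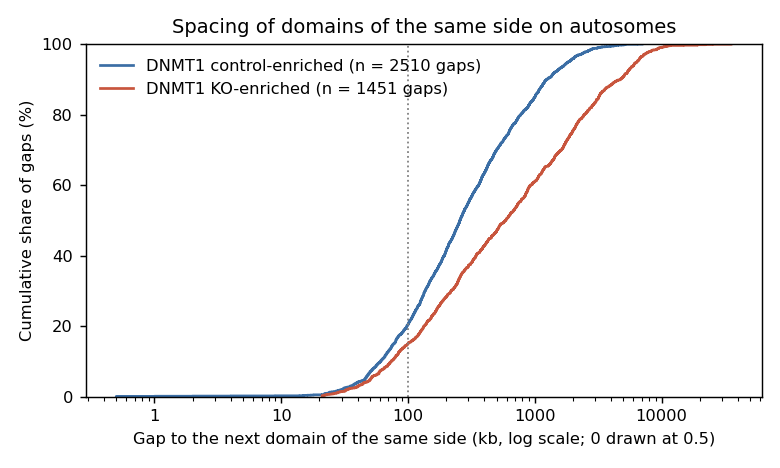
Cumulative share (%) of gaps between neighbouring domains of the same side on autosomes, by gap length (kb, log scale), with a dotted line at 100 kb. The KO curve starts at 21 kb and runs to 35737 kb, right of the control curve, with medians of 587 and 256.5 kb.

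The longest stretch between KO domains was chr14:87479001-123216000, at 35.7 Mb. Control domains numbered 30 inside it and covered 64.5% of its length. The next were chr16:59638001-84821000, at 25.2 Mb with 69.3% in control domains, and chr8:49553001-71795000, at 22.2 Mb with 37.2%. Stretches of 19.3 Mb on chromosome 15 (chr15:12112001-31446000) and 19.1 Mb on chromosome 10 (chr10:95542001-114661000) followed, with 77.6% and 58.2% in control domains. The share in control domains was above the 44.4% of all autosomes in 4 of these 5 stretches, and below it on chromosome 8.

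The sides were interleaved along chromosomes. Of the KO domains with a neighbour on both sides, 479 (33.2%) lay between 2 control domains, 336 (23.3%) between 2 KO domains and 629 (43.6%) between one of each. Among the neighbours of KO domains 45.05% were KO domains, against 31.6% among the neighbours of control domains and 36.8% among all domains. KO domains between 2 control domains had a median length of 39 kb (34 to 43 kb), and those between 2 KO domains 47 kb (40 to 52 kb), intervals that overlap. Control domains between 2 KO domains were shorter, at 162.5 kb (139 to 187 kb), than those between 2 control domains, at 281 kb (262 to 306 kb). Neighbours within 20 kb were mostly of opposite sides. Whether the calling joined same-side domains that lay this close is not stated, so the contrast describes the calls only. A control domain followed by a KO domain lay within 20 kb of it in 98 of 799 cases and abutted it in 18, and a KO domain followed by a control domain did so in 88 and 9 of 799. Of 1724 control domains followed by a control domain 10 lay within 20 kb and 3 abutted, and of 658 KO domains followed by a KO domain none did. The median gaps of these 4 kinds of neighbours were closer together, at 198 kb, 171 kb, 183 kb and 163 kb in turn.

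Some KO domains formed small clusters. A KO domain was counted as close to another when the gap was at most 100 kb. This held for 386 of 1470 KO domains, 26.3% (Wilson 95% interval 24.1% to 28.6%), and for 918 of 2529 control domains, 36.3% (34.4% to 38.2%). The control side holds more domains, which lie closer together by their number alone. Close domains come in pairs or runs, so these Wilson intervals, which count each domain as independent, are too narrow. Linking close KO domains gave 126 runs of 2, 28 runs of 3, 10 runs of 4 and 2 runs of 5 domains, and left 1084 domains alone. Close KO domains had a median length of 49 kb (44 to 54 kb) and lone ones 41 kb (39 to 45 kb), with median scores of -6.61 and -6.54. The intervals of both measures overlapped between close and lone KO domains.

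Counts in windows gave a fuller view of clustering. In 2482 windows of 1 Mb, the variance of the number of KO domains was 1.50 times its mean, and that of control domains 0.717 times. KO domains were absent from 1559 of these windows (62.8%), and 126 held 3 or more, with at most 6 in a window. In windows of 5 Mb the ratio was 2.36 on the KO side and 1.05 on the control side. A broad domain takes up room and so limits how many fit in a window, which bears on the control values. The 5 Mb window with most KO domains, chr13:65000001-70000000, held 15, and the windows chr12:85000001-90000000, chr4:145000001-150000000 and chr9:55000001-60000000 held 13 each.

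The densest runs were of different kinds. On chromosome 13, 5 KO domains within chr13:67234001-67963000 covered 521 of 729 kb, with lengths of 15, 78, 58, 321 and 49 kb in order and gaps of 41, 48, 32 and 87 kb between them. Their scores were -8.59, -6.10, -6.97, -5.76 and -5.93, with the shortest domain scoring lowest. The run of 5 at chr8:71795001-72141000 covered only 137 of 346 kb. Its scores of -6.28, -5.99, -22.0, -12.7 and -11.9 spread more widely, and it begins where the 22.2 Mb stretch of chromosome 8 without KO domains ends. Among runs of 4, of which those with the most bases are given, chr17:21595001-23063000 covered 1283 of 1468 kb in domains whose lengths ran from 98 to 497 kb. It holds 2 of the 5 longest KO domains, and its scores lay between -7.48 and -5.80. The run chr7:48235001-48915000 covered 562 of 680 kb and chr13:62202001-62888000 covered 545 of 686 kb. The latter opens with a 13 kb domain scoring -24.6, followed by domains scoring -6.94, -6.65 and -8.42.

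Every autosome showed the same contrast between the sides. On all 19, KO domains were fewer and shorter by median than control domains and covered less. The intervals of the median lengths did not overlap on any of them. The median score was also lower on the KO side on all 19. That order is fixed by the calls, since the score ranges of the sides did not overlap on the autosomes. The median gap from edge to edge was larger on the KO side on all 19 autosomes, but its interval lay apart from that of the control side on 6. The share of domains close to another of their side was lower for KO on 15 autosomes, with intervals apart on 2. Those intervals count linked domains as independent and are too narrow. Fewer domains alone widen the gaps and lower this share, so neither value shows that KO domains cluster less.

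**Figure D4:**
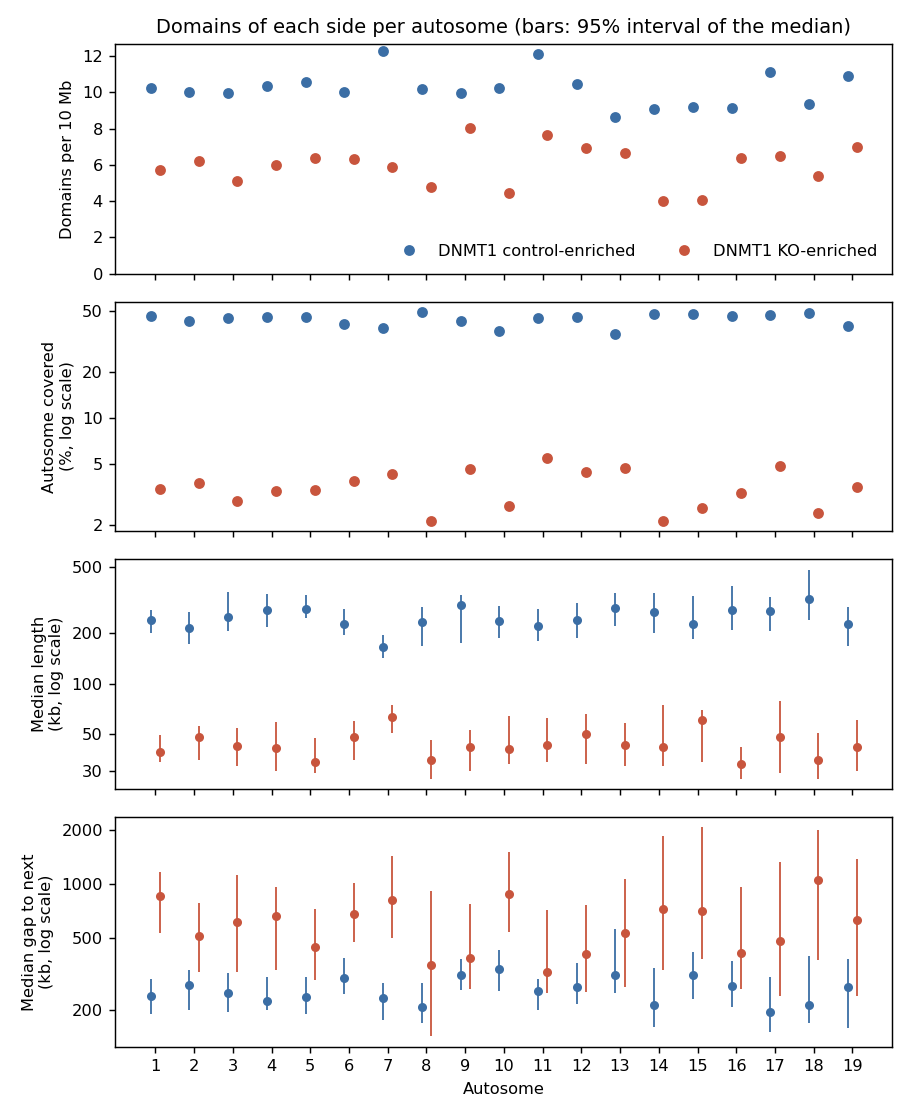
Domains per 10 Mb, covered share (%, log scale), median length (kb, log scale) and median gap to the next domain of the same side (kb, log scale) for each of the 19 autosomes; bars are 95% intervals of the medians. KO lengths lie below control lengths on every autosome, while the intervals of the gaps overlap on 13.

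Among autosomes the density of KO domains varied by a factor of 2.02. It was highest on chromosome 9, at 8.06 per 10 Mb (100 domains), and chromosome 11, at 7.63 (93 domains). It was lowest on chromosome 14, at 3.99 (50 domains), and chromosome 15, at 4.06 (42 domains). The control side varied less, by a factor of 1.42, from 8.65 per 10 Mb on chromosome 13 to 12.3 on chromosome 7. KO domains made up 44.6% (Wilson 38.3% to 51.2%) of the domains of chromosome 9 and 43.5% (36.5% to 50.7%) of those of chromosome 13. The share was lowest on chromosome 10, at 30.4% (24.3% to 37.2%), and was 30.5% (24.0% to 37.9%) on chromosome 14. Neither interval reaches that of chromosome 9, and both overlap that of chromosome 13.

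KO coverage ranged from 2.13% of chromosome 8 and 2.14% of chromosome 14 to 4.86% of chromosome 17 and 5.54% of chromosome 11. Control coverage ran from 35.3% of chromosome 13 to 49.4% of chromosome 8. The ratio of control to KO bases was 7.44 on chromosome 13, the lowest, and 23.1 on chromosome 8, the highest. Over the 19 autosomes, KO and control coverage correlated at -0.38 (Pearson) and -0.53 (Spearman), and the Pearson value was -0.59 without chromosomes 17 and 11. A base on one side cannot be on the other, so these values are linked by construction. The number of KO domains rose with the length of the autosome (Pearson 0.81, Spearman 0.72), whereas KO coverage did not track it (-0.0028 and -0.10). All of these share 1 pair of libraries and are given without a p-value.

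Median KO length lay between 33 kb on chromosome 16 (27 to 42 kb) and 63.5 kb on chromosome 7 (51 to 75 kb). Those intervals do not overlap, while the interval of chromosome 15, at 61 kb (34 to 70 kb), overlaps both. Chromosome 7 also had the shortest control domains, at 165 kb (142 to 196 kb), against 321 kb (242 to 480 kb) on chromosome 18. Across the autosomes, longer KO domains went with shorter control domains (Pearson -0.65, Spearman -0.56). Without chromosomes 15 and 7 the Pearson value was -0.44. Median KO scores differed little, from -6.86 (-7.32 to -6.55) on chromosome 17 to -6.33 (-6.61 to -6.04) on chromosome 15. The lowest score on an autosome varied widely, between -267 on chromosome 9 and -10.3 on chromosome 10.

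Spacing and clustering of KO domains were not the same everywhere. The median KO gap was 324 kb (250 to 716 kb) on chromosome 11 and 1047.5 kb (380 to 2000 kb) on chromosome 18, with intervals that overlap. The share of KO domains close to another was 42.9% on chromosome 8 (27 of 63, Wilson 31.4% to 55.1%), 37.6% on chromosome 4 (35 of 93, 28.5% to 47.8%) and 37.5% on chromosome 13 (30 of 80, 27.7% to 48.5%). It was 9.52% on chromosome 15 (4 of 42, 3.77% to 22.1%) and 11.5% on chromosome 1 (13 of 113, 6.85% to 18.7%). The intervals of chromosomes 1 and 15 stay below those of chromosomes 8, 4 and 13. Close domains come in pairs or runs, while these intervals count each domain as independent, so they are too narrow. The autosomes were also picked as extremes, and the separation was not tested. Chromosome 8 joined the lowest KO coverage with the highest share of close domains.

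Chromosome X differed from the autosomes on both sides. Its 18 KO domains covered 0.539 Mb, or 0.323% of its 166.65 Mb, with lengths from 1 to 119 kb and a median of 22.5 kb. Their median score was -13.8, lower than on any autosome, with a range from -84.5 to -7.22. The 77 control domains covered 142 Mb, or 85.2% of X, had a median score of -2.03 and were separated by a median gap of 38 kb. The labels do not give the sex of the cells of either library. The number of X copies in each was not tested.

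Set beside the other lists, KO domains were longer than those of the 2i and TKO sides. On the autosomes the median length was 14 kb (13 to 15 kb) in the 5984 domains higher in 2i than in serum, and 16 kb (14 to 19 kb) in the 280 TKO domains. The median gap was 132 kb on the 2i side and 4446 kb on the TKO side, with 587 kb on the DNMT1 KO side between them. The shares of domains within 100 kb of another were 61.1% for 2i and 12.1% for TKO. The 2i values include chromosomes 6 and 8, of which the 2i side covered 68.0% and 64.1%, against 3.29% to 9.61% of each other autosome. They were not computed without these 2 chromosomes. More numerous domains lie closer together by their number alone. Each list is 1 pair of libraries, so no test of a difference between lists was made.

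On the autosomes 1026 KO domains, 69.8% (Wilson 67.4% to 72.1%), met a 2i domain by at least 1 base, as did 32.2% (30.4% to 34.1%) of the control domains. The 2i side covered 68.0% of chromosome 6 and 64.1% of chromosome 8 but 3.29% to 9.61% of each other autosome. Without those 2 chromosomes 869 of 1312 KO domains met it, 66.2% (63.6% to 68.7%). On chromosome 8 all 63 KO domains did so and on chromosome 6 94 of 95, while the lowest share, 57 of 100, was on chromosome 9 (47.2% to 66.3%). The serum side, which covers 713 of the 2472 Mb of autosomes, was met by 174 KO domains, 11.8% (10.3% to 13.6%). It was met by 62.2% (60.3% to 64.0%) of control domains, which are longer than KO domains. When the overlap had to span 50% of the shorter domain, the KO number with serum fell to 52, or 3.54%. Whether the DNMT1 control and the serum library are the same library is not labelled, so these lists may not be independent.

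In the lists that pair TDG control with TDG knockdown and TKO control with TKO, the number of KO domains met has to be read beside the bases each side covers. The TDG knockdown side was met by 376 KO domains, 25.6% (23.4% to 27.9%), and the TKO control side by 265, 18.0% (16.1% to 20.1%). The TDG control side was met by 170, 11.6% (10.0% to 13.3%), and the TKO side by 87, 5.92% (4.82% to 7.24%). Among control domains these shares were 44.8% for TDG knockdown, 48.9% for TKO control, 2.14% for TDG control and 3.28% for TKO. The TDG knockdown and TKO control sides cover 648 and 685 of the 2472 Mb of autosomes, and the TDG control and TKO sides 6.69 and 9.87 Mb. The larger numbers on the broad sides thus go with far larger coverage. No share expected from coverage was computed.

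The shortest and the longest KO domains had the highest shares that met TDG control domains, while for TKO only the shortest class stood out. Of the 67 KO domains under 5 kb, 19 met TKO and 19 met TDG control, 28.4% each (18.97% to 40.1%). Of the 684 of 10 to under 50 kb, 3.95% (2.73% to 5.68%) met TKO and 6.73% (5.08% to 8.85%) TDG control. The 47 domains of 200 kb or more met TDG control in 19 cases, 40.4% (27.6% to 54.7%), and TKO in 7, 14.9% (7.41% to 27.7%). How far the length of a domain sets these shares was not tested. Among the 50 lowest scores, chromosomes 6 and 8 included, 47 met 2i, 28 met TDG control and 27 met TKO. All 5 of the lowest met both 2i and TKO. Domains that met TKO had a median score of -11.1 and the others -6.52, and for TDG control the values were -8.47 and -6.51.

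**Figure D5:**
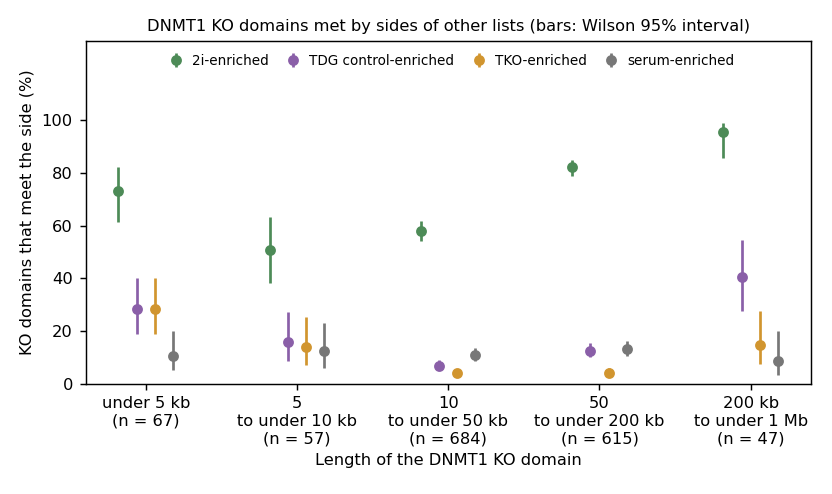
Share (%) of autosomal KO domains that meet a 2i, TDG control, TKO or serum domain by at least 1 base, by length class of the KO domain, with Wilson 95% intervals. The share with TKO is 28.4% in the shortest class and 3.95% at 10 to under 50 kb, and the share with 2i is highest, at 95.7%, in domains of 200 kb or more. The 2i shares keep chromosomes 6 and 8, of which the 2i side covers 68.0% and 64.1%.

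Jointly, 841 KO domains (57.2%) met 2i but neither TKO nor TDG control, 417 (28.4%) met none of the 3, and 44 (2.99%) met all 3. The 44 had a median length of 37.5 kb and a median score of -12.9, and were spread over 18 autosomes. The 417 had a median length of 28 kb and a score of -6.75. Of the 87 KO domains on the TKO side, 79 also met 2i, and of the 170 on the TDG control side, 150 did. All of these counts keep chromosomes 6 and 8, of which the 2i side covered 68.0% and 64.1%. There 94 of 95 and all 63 KO domains met 2i. The joint counts were not made without these chromosomes.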

How the data were processed

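H2A.X chromatin of 8 labelled samples was sequenced, 1 library per condition. The submitters' processing notes name Bowtie2 2.0.6 and the build mm9. The authors deposited 6 lists of domains, each from a pair of libraries, with 2 scores per domain. The unit of the scores, the program that made the calls and any scaling for depth were not given in the sources used here. Domains were sorted per chromosome with Python 3.11.15, pandas 2.3.3 and scipy 1.17.1, and length, gap, run (gaps of at most 100 kb) and window counts were computed per side. Domains with a signed score within 0.05 of 0 and those on Y were left out. The functions for gaps, runs and overlaps were tested on simulated data. No hypothesis test was run, since each condition has 1 library, and medians carry order-statistic 95% intervals and shares Wilson 95% intervals. Named regions are, per side, the 5 longest autosomal domains and the 5 with the score farthest toward the side, the 5 KO runs with most domains, and the lowest and highest autosome for each measure. Ties between runs were settled by covered length, a choice made after the data were seen, as were the length classes, windows, longest gaps and joint overlaps. The members, lists and alternatives were chosen with earlier results of these data known. Alternatives covered chromosomes, score, merging, minimum length, distances and overlap. No sequence is shown, because no mm9 genome was used here.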

Additional observations from a re-analysis of the deposited data

How the results depend on the processing

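Of the alternatives, 57 left a value within its interval, or a count or covered length within 1.5 times, and 19 moved it. Adding X, merging within 10 kb, requiring at least 5 kb, keeping the domains at score 0 and taking the median of the medians per autosome moved none. Keeping the 50% of domains with the score farthest toward their side lowered numbers by construction, to 735 KO and 1264 control domains. In that setting the KO and control values were 24 and 132.5 kb for median length, 26.5 and 365 Mb for covered length, -7.59 and -2.37 for median score, 1477 and 706 kb for the median gap, and 17.1% and 24.8% for the share within 100 kb of another. That share was 9.46% and 13.4% at a distance of 50 kb, and 46.5% and 63.5% at 200 kb. From midpoint to midpoint the control gap became 741 kb, above the 648 kb of the KO side, since the midpoint distance includes the length of the domains. This turns the order of spacing between the sides. When an overlap had to span 50% of the shorter domain, 66.3% of KO domains met 2i, and without chromosomes 6 and 8, an alternative chosen after seeing the data, 66.2% did. No paired analysis was possible because DNMT1 KO and its control have a single library each. Limits set by depth could not be measured, since the list gives no read counts.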

Other observations

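Along the autosomes, each divided into 10 equal parts from the start of its coordinates, KO domains covered 2.32% of the first part, 4.79% of the third, their highest, and 3.01% of the last. Control domains covered 26.3% of the first part and 59.2% of the last, their highest. No autosomal domain of the list starts before 3 Mb, which lowers the first part on both sides. The last 5 Mb of the autosomes were reached by 62 KO domains (4.22%) and 117 control domains (4.63%), and 66 KO (4.49%) and 84 control domains (3.32%) began in the first 8 Mb of coordinates. These stretches were taken on each of the 19 autosomes, which together reach 2472 Mb. No share expected from the length of the stretches was computed, so an excess or lack of domains near the ends was not tested. Over 505 windows of 5 Mb, the numbers of KO and control domains correlated at 0.12 (Spearman and Pearson), a description over windows that share the same libraries.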
